A study of Macaca mulatta with 43 samples.

Results

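The genes of the glucocorticoid and stress axis were examined in medial prefrontal cortex (PFC) of rhesus macaques after a year of ethanol drinking. The 8 genes chosen were NR3C1, NR3C2, FKBP5, CRH, CRHR1, CRHBP, TSC22D3 and SGK1, and every probeset whose only gene symbol in the platform's probe table was one of them was taken. This gave 13 of the 52865 probesets on the array, for 7 of the 8 genes. NR3C2, the mineralocorticoid receptor, had no such probeset and was not analysed here. CRHR1 had 4 probesets, NR3C1 had 3, SGK1 had 2, and FKBP5, CRH, CRHBP and TSC22D3 had 1 each. All 13 passed the filter on low values.

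Corticotropin-releasing hormone, encoded by CRH, is the peptide that starts the hormonal stress response in the hypothalamus, and it is also made by local neurons of the cortex. It signals through the receptor CRHR1, and CRHBP is a secreted protein that binds the peptide and limits its action. The pituitary and adrenal response ends in release of cortisol, which enters cells and acts on the glucocorticoid receptor, NR3C1, a transcription factor held by chaperones until hormone binds. FKBP5, TSC22D3 and SGK1 are classical transcripts induced by that receptor. FKBP5 is a co-chaperone that lowers hormone binding by the receptor, TSC22D3 (also called GILZ) is a leucine zipper protein with anti-inflammatory actions, and SGK1 is a kinase that regulates ion channels and transporters. In the brain SGK1 is abundant in oligodendrocytes, and these genes are much studied in relation to alcohol drinking.

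One Affymetrix rhesus array was made for each of 43 male animals, aged 5 to 11 years, from RNA of Brodmann areas 24, 25 and 32 pooled within the animal. The 32 drinkers were first trained by schedule-induced polydipsia and then had a choice of water and 4% (w/v) ethanol for 22 h per day over 1 year, and tissue was taken within hours of the last access. The 11 controls drank water and were given a daily maltose dextran solution matched in calories. Cohort 4 held 11 drinkers and no control, cohort 5 held 8 drinkers and 5 controls, cohort 7a held 8 and 4, and cohort 7b held 5 and 2. Animals are numbered 1 to 43 as in the labels. Drinking was voluntary, so drinkers differed in dose, and cohorts 4 and 5 were extracted with another kit (RNeasy) and processed apart from cohorts 7a and 7b (AllPrep). Kit, processing and cohort cannot be told apart between these pairs of cohorts. Levels are therefore tested within a cohort or within a kit, and levels of different kits are given only as a description. The exception is the first comparison of drinkers with controls over all 43 arrays, which held no term for kit or cohort. Cohort 4 held no control, so the kits were not shared evenly between drinkers and controls in that fit. Where no block is named, results over all arrays come from it.

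The libraries of the 2 kits lay apart. A principal component analysis of the 24151 annotated probesets tested put 54.7% of the variance on its first component, on which kit accounted for 96.8% of the spread. The beta-actin control probesets of the array read the 3' and the 5' end of one mRNA, and their difference grows when transcripts are truncated. It was near 4.5 log2 units in the groups of cohorts 4 and 5. In cohort 7a it ran from 0.76 to 0.87 in controls and from 0.93 to 1.60 in drinkers, and in cohort 7b from 0.75 to 0.81 and from 0.76 to 1.71. The same difference for GAPDH overlapped between the groups of both cohorts. Excitatory neuron, astrocyte and oligodendrocyte markers were at group means between 9.62 and 12.9 log2 units. The mean over 6 microglia markers was 7.58 in controls and 7.22 in drinkers of cohort 7a, and 7.63 and 7.34 in cohort 7b. The controls ran from 7.40 to 7.79 and from 7.60 to 7.67, and the drinkers from 7.05 to 7.41 and from 7.17 to 7.46. The mean over 4 astrocyte markers was 11.76 in controls and 11.72 in drinkers of cohort 7a. In cohort 7b it was 11.41 and 11.73, and the controls (11.37 to 11.45) and the drinkers (11.67 to 11.79) did not overlap. In bulk tissue, fewer cells of a type and less RNA per cell cannot be told apart.

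Values are log2 RMA values, and differences are ethanol minus control in log2 units, with the standard error (SE) of the limma fit. A probeset was called when its p, adjusted by Benjamini-Hochberg over all 24151 probesets tested, was below 0.05. Over all 43 arrays, 1 of the 13 probesets was called, a CRHR1 probeset that was higher in drinkers, against a background of 5.57% of probesets called higher and 10.6% called lower. With cohort as a block, 2 were called higher and 3 lower, where the background was 11.8% and 21.5%. In cohort 5, none of the 13 was called and the background was 0% (limma, 731 of all probesets and 0 of the 13 at an unadjusted p under 0.05). In cohort 7a, 1 was called higher and 2 lower, with backgrounds of 10.6% and 20.3%. In cohort 7b, 3 were called higher and 5 lower, with backgrounds of 14% and 26.1%. The shares called among the 13 probesets were near the background in all these comparisons but that of cohort 7b. There 8 of 13 were called against only 2 controls, and without control animal 37 or 38 the count was 1 or 4. The 3 calls of cohort 7a came to 0 without control animal 27 and 1 without 26, and the 5 with cohort as a block to 1, 2 or 3 without control animal 37, 38 or 28. Single animals were left out only from groups of 5 or fewer, so no drinker of cohorts 4, 5 or 7a was left out alone. Fitted on the arrays of cohort 7b alone, CRHBP, NR3C1 MmuSTS.1975.1.S1_at and CRHR1 MmugDNA.37485.1.S1_at and MmugDNA.24786.1.S1_at were called. The median difference of the 13 probesets over all arrays was -0.049, beside -0.044 for all probesets tested. Where groups are said below not to overlap, the share of all probesets that did the same was not counted. With only 2 controls in cohort 7b, such a gap can arise by chance.

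**Figure D1:**
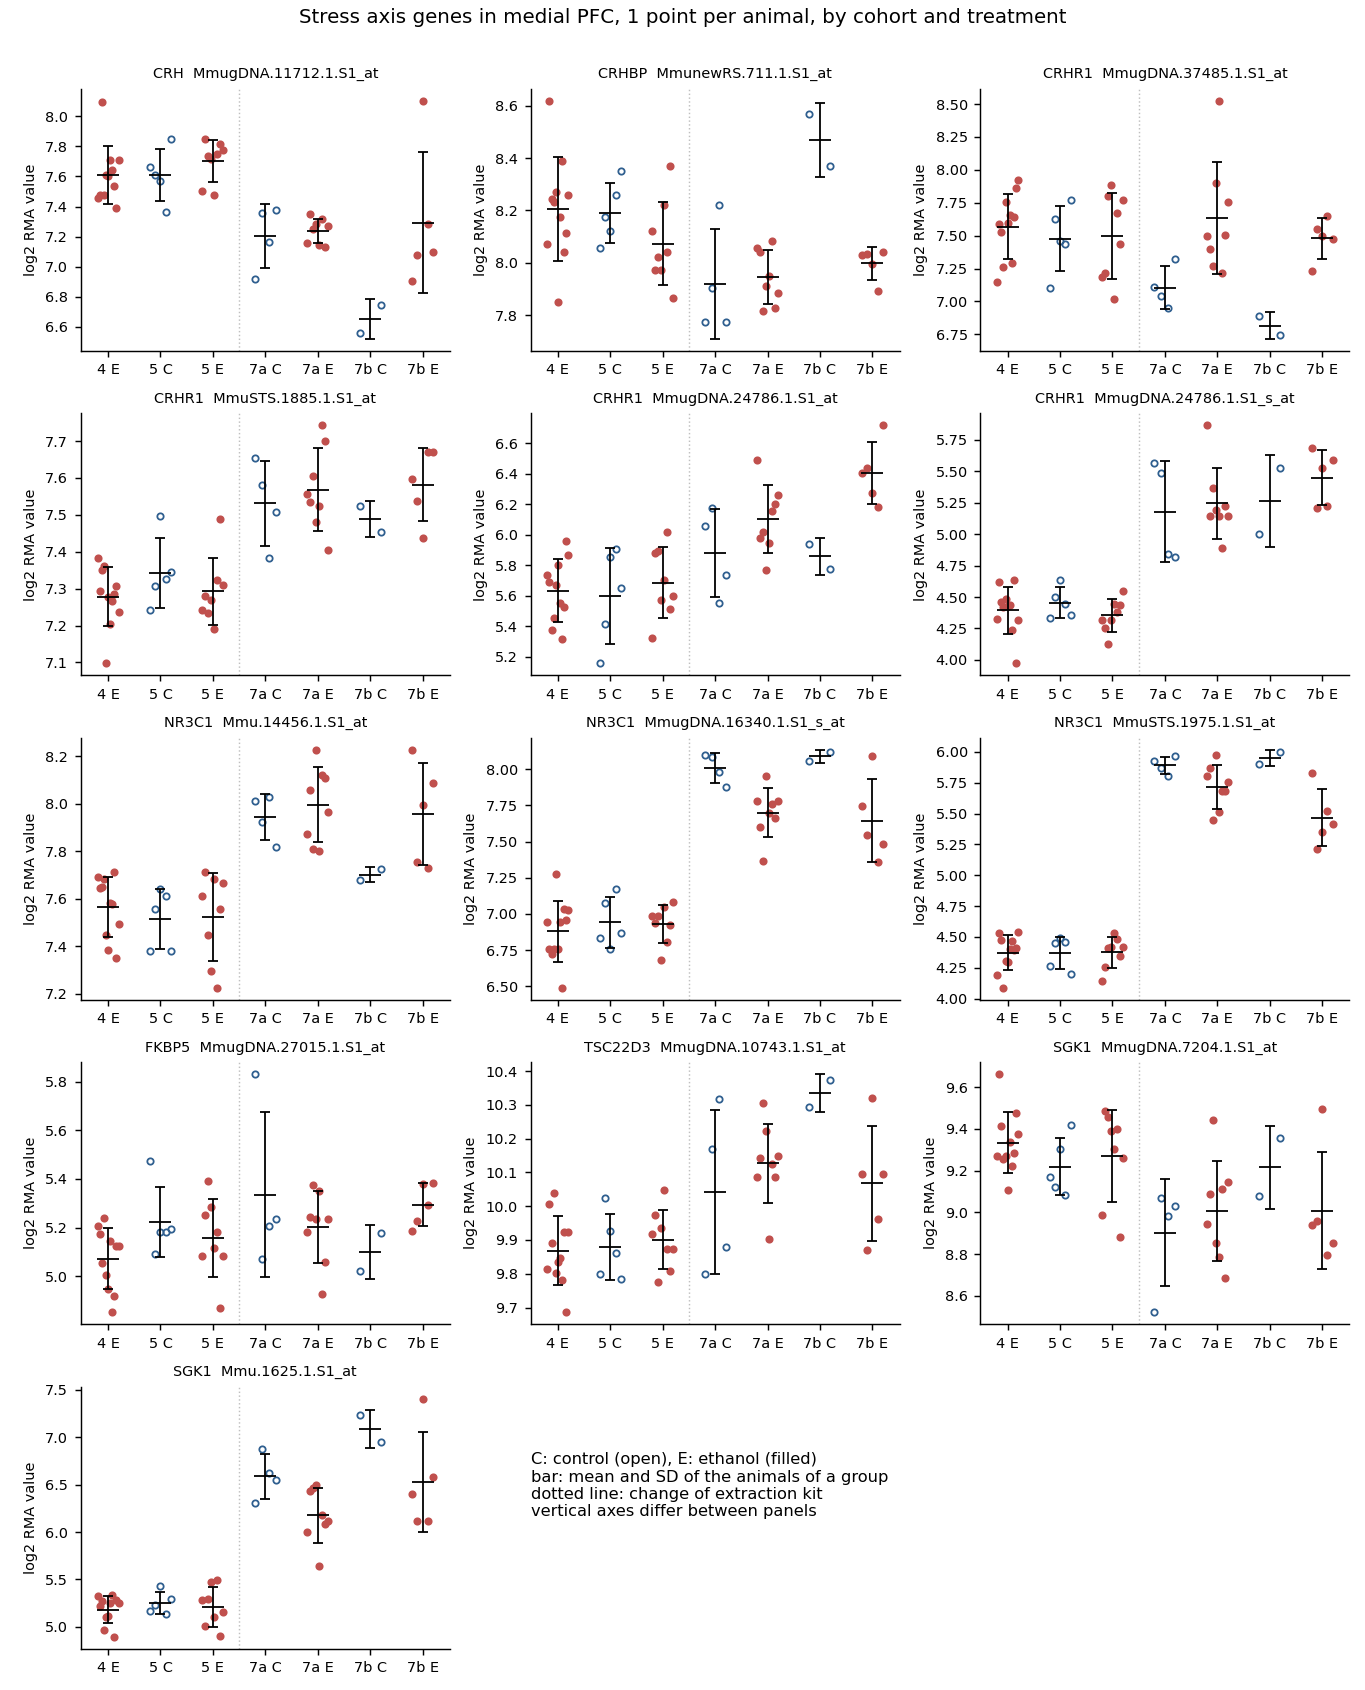
Log2 RMA value (vertical axes, which differ between panels) of each of the 13 probesets in each animal, by cohort and treatment (horizontal axes; C, control, open; E, ethanol, filled), with the mean and SD of each group as bars and a dotted line at the change of kit. Values of CRHR1 MmugDNA.37485.1.S1_at lie lowest in the controls of cohort 7b, and both NR3C1 MmuSTS.1975.1.S1_at and SGK1 Mmu.1625.1.S1_at step up between the kits.

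The CRH transcript was higher in the drinkers than in the controls of cohort 7b, and in no other cohort was it called. In cohort 7b the controls had 6.56 and 6.75 log2 units and the drinkers 6.91, 7.08, 8.10, 7.28 and 7.10. The 5 drinkers lay above both controls, and 1 drinker, animal 41, stood well above the rest. The difference was 0.64 (SE 0.18, adjusted p = 0.00313), a 1.56-fold higher level, and 0.44 without animal 41 (adjusted p = 0.00894). In cohort 7a the controls had 6.92, 7.36, 7.16 and 7.38, and the drinkers ran from 7.13 through a median of 7.26 to 7.35, wholly within the range of the controls. In cohort 5 the controls had 7.66, 7.61, 7.57, 7.37 and 7.85, and the drinkers ran from 7.48 through 7.74 to 7.85. The groups of these cohorts overlapped, with differences of 0.034 (SE 0.13) in cohort 7a and 0.092 (SE 0.12) in cohort 5. Over all arrays the difference was 0.20 (95% confidence interval -0.022 to 0.43, adjusted p = 0.208). The 11 drinkers of cohort 4 ran from 7.39 through 7.60 to 8.10. The 2 controls of cohort 7b were the lowest of all 43 animals in CRH, and without control animal 37 the call in this cohort was lost (0.55, adjusted p = 0.0752), as it was when the arrays of cohort 7b were fitted alone (adjusted p = 0.103).

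CRHBP moved in the other direction in cohort 7b. The controls had 8.57 and 8.37 and the drinkers 8.03, 8.04, 7.995, 7.89 and 8.04, so the groups did not overlap. The level was lower by 0.47 log2 units in drinkers (difference -0.47, SE 0.13, adjusted p = 0.00302), and without control animal 37 the call was lost (-0.37, adjusted p = 0.0995). The controls of cohort 7a had 7.78, 7.91, 8.22 and 7.78, around drinkers that ran from 7.82 through 7.93 to 8.08. In cohort 5, controls had 8.06, 8.17, 8.12, 8.26 and 8.35, and drinkers ran from 7.87 through 8.03 to 8.37, with 5 of 8 below every control. Neither cohort passed the test, at 0.028 (SE 0.094) and -0.12 (SE 0.088). For both CRH and CRHBP the drinkers of cohort 7b were near those of cohort 7a, with group means of 7.29 and 7.24 for CRH and 7.9995 and 7.95 for CRHBP, while the controls of the 2 cohorts had means of 6.65 and 7.20 for CRH and 8.47 and 7.92 for CRHBP. The ethanol effects of cohorts 7a and 7b together did not differ from that of cohort 5 past the threshold for CRH (0.25, adjusted p = 0.265) or CRHBP (-0.10, adjusted p = 0.554).

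The receptor CRHR1 was read by 4 probesets that did not move as one. The probeset MmugDNA.37485.1.S1_at was the only one of the 13 called over all arrays. It had a median of 7.54 in the 32 drinkers (7.02 to 8.52) and of 7.11 in the 11 controls (6.74 to 7.77), with wide overlap. The difference was 0.33 (SE 0.11, 95% confidence interval 0.12 to 0.54, adjusted p = 0.0271), or 1.26-fold. In cohort 7b the controls had 6.89 and 6.74, and the drinkers had 7.23, 7.55, 7.50, 7.65 and 7.48, all above both controls (0.66, SE 0.23, adjusted p = 0.0199), though not past the threshold without control animal 37 (adjusted p = 0.0701) or 38 (0.145), or with the actin difference as a covariate (0.56, adjusted p = 0.0654). In cohort 7a the controls had 7.11, 7.04, 6.95 and 7.33, and the drinkers ran from 7.22 through 7.50 to 8.52, with 6 of 8 above every control (0.53, SE 0.17, adjusted p = 0.0158), and without control animal 27 the adjusted p was 0.0597. The call in cohort 7a was also lost with the actin difference as a covariate (0.38, adjusted p = 0.169) and when the arrays of that cohort were fitted alone (adjusted p = 0.0588). In cohort 5 the controls had 7.10, 7.62, 7.46, 7.44 and 7.77 and the drinkers ran from 7.02 through 7.55 to 7.88, a difference of 0.019 (SE 0.16, 95% confidence interval -0.30 to 0.34). The effect in cohorts 7a and 7b exceeded that in cohort 5 by 0.58 (SE 0.21, adjusted p = 0.0353), and this call was lost without control animal 13, 16, 27, 37 or 38 (adjusted p from 0.0516 to 0.0851) and with the actin covariate (0.46, adjusted p = 0.126). Of the 13 probesets, 1 was called higher and 2 lower in this test of the difference between cohorts, beside backgrounds of 10.3% and 21.3%.

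The call over all arrays was lost without control animal 26 (adjusted p = 0.0521), 27 (0.0651), 37 (0.0813) or 38 (0.0911), without cohort 4 (0.0778), 7a (0.320) or 7b (0.237), and with cohort as a block together with the actin difference of each array (0.22, adjusted p = 0.205). The other CRHR1 probesets gave part of this pattern. MmugDNA.24786.1.S1_at had 5.94 and 5.77 in the controls of cohort 7b and 6.40, 6.44, 6.27, 6.18 and 6.72 in the drinkers, with no overlap (0.54, SE 0.19, adjusted p = 0.0177). Without control animal 37 or 38 its adjusted p was 0.0533 or 0.161, and with cohort as a block it was called over all arrays as well (0.23, adjusted p = 0.0352). In cohorts 5 and 7a it differed by 0.089 (SE 0.13) and 0.22 (SE 0.14), with overlap. MmugDNA.24786.1.S1_s_at, whose suffix marks probes shared between transcripts, and MmuSTS.1885.1.S1_at were called in no comparison of drinkers with controls. Their differences in cohort 7b were 0.18 (SE 0.19) and 0.094 (SE 0.085). Between animals of one group, none of the 6 pairs of CRHR1 probesets correlated past the threshold, with r between -0.19 and 0.24 (43 animals, permutation p, adjusted over 10 pairs of probesets of one gene, at least 0.322). Which transcripts each probeset reads was not tested.

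**Figure D2:**
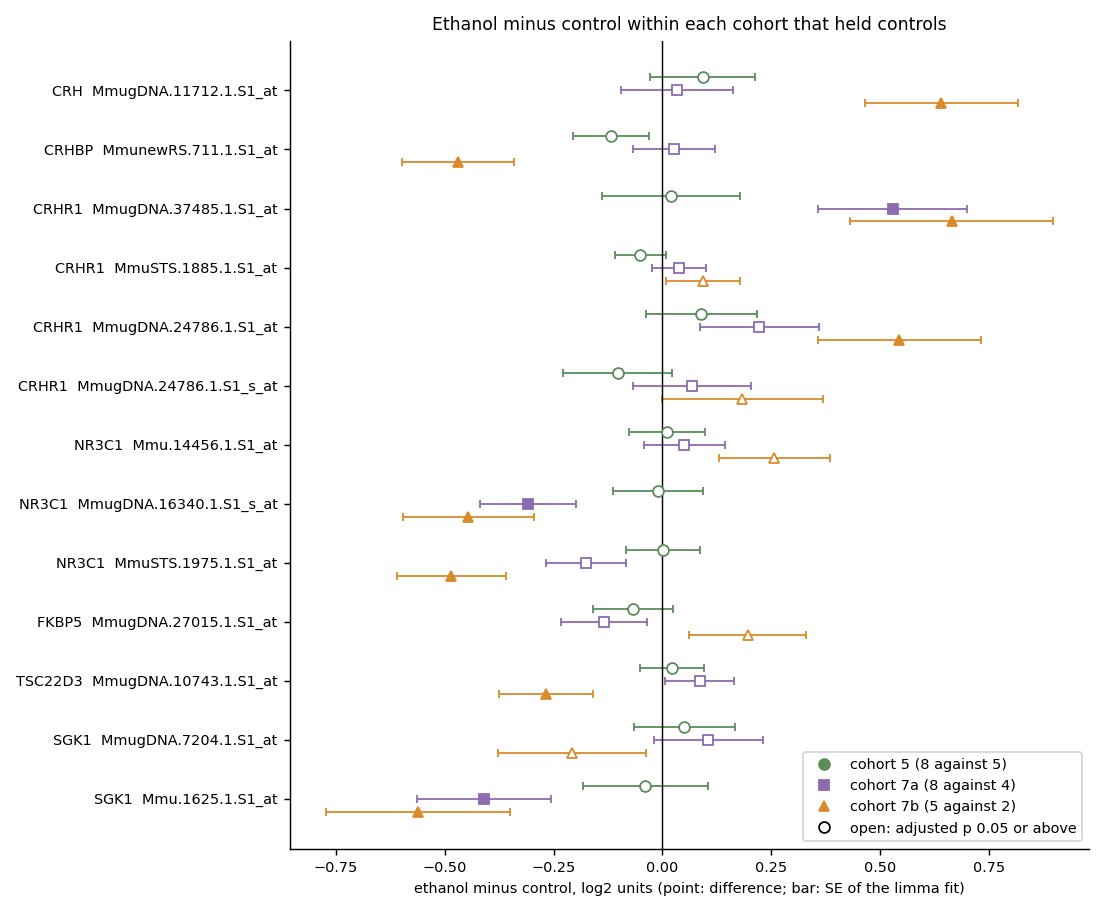
Ethanol minus control in log2 units (horizontal axis) for the 13 probesets (rows) within cohorts 5, 7a and 7b, with the SE of the limma fit as bars and filled symbols where the adjusted p was below 0.05. Differences of cohort 5 lie between -0.12 and 0.092, and those of cohort 7b reach from -0.56 for SGK1 Mmu.1625.1.S1_at to 0.66 for CRHR1 MmugDNA.37485.1.S1_at.

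The 3 probesets of the glucocorticoid receptor NR3C1 disagreed in direction. MmugDNA.16340.1.S1_s_at, whose suffix also marks probes shared between transcripts, was lower in the drinkers of both cohorts 7a and 7b. In cohort 7a the controls had 8.10, 8.09, 7.98 and 7.87 and the drinkers ran from 7.37 through 7.73 to 7.95, with 7 of 8 below every control (-0.31, SE 0.11, adjusted p = 0.0303). The call was lost without control animal 25 (adjusted p = 0.0892), 26 (0.0800) or 27 (0.0529). Controls of cohort 7b had 8.06 and 8.12, and the drinkers had 7.75, 7.54, 8.09, 7.36 and 7.48 (-0.45, SE 0.15, adjusted p = 0.0163), and without control animal 37 or 38 the adjusted p was 0.0712 or 0.115. Animal 41 was the drinker that lay between the 2 controls. In cohort 5 the controls had 6.83, 7.08, 6.76, 7.17 and 6.87 and the drinkers ran from 6.68 through 6.96 to 7.08, a difference of -0.011 (SE 0.10). The effects of cohorts 7a and 7b were lower than that of cohort 5 by 0.37 (difference -0.37, SE 0.14, adjusted p = 0.0404), a call lost without any of 10 single animals (adjusted p from 0.0534 to 0.0910), with the actin covariate (-0.21, adjusted p = 0.249) and with array medians subtracted (-0.28, adjusted p = 0.101).

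MmuSTS.1975.1.S1_at was lower in the drinkers of cohort 7b, where controls had 5.90 and 5.998 and drinkers 5.83, 5.21, 5.35, 5.52 and 5.42, without overlap (-0.49, SE 0.13, adjusted p = 0.00177). This call held under each alternative fit tried, without either control included. Controls of cohort 7a had 5.93, 5.87, 5.80 and 5.96 and the drinkers ran from 5.45 through 5.72 to 5.97, with 5 of 8 below every control and no call (-0.18, SE 0.092, adjusted p = 0.144). Cohort 5 gave no difference beyond its spread, with controls at 4.27, 4.45, 4.49, 4.46 and 4.20 and drinkers from 4.14 through 4.41 to 4.53 (0.0010, SE 0.086). The group means of this probeset in cohorts 4 and 5 were 4.37, dimmer than those of FKBP5. Whether a signal that low lay above background is not known, which limits the comparison with cohort 5. The difference from cohort 5 was called (-0.33, SE 0.12, adjusted p = 0.0249), but not without control animal 12, 16 or 38 (adjusted p from 0.0531 to 0.0683), with the actin covariate (-0.29, adjusted p = 0.0721) or with array medians subtracted (-0.24, adjusted p = 0.0976).

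Mmu.14456.1.S1_at was called in no comparison of drinkers with controls as first fitted, and its differences within cohorts were above 0. Its controls in cohort 7b had 7.68 and 7.72 and its drinkers 8.23, 7.75, 7.99, 7.73 and 8.09, all above both controls, at 0.26 (SE 0.13, adjusted p = 0.106), and it was called there with array medians subtracted (0.36, adjusted p = 0.0132). Controls of cohort 7a had 8.01, 7.92, 8.03 and 7.82 and the drinkers ran from 7.80 through 8.01 to 8.22 (0.051, SE 0.093). In cohort 5 they had 7.38, 7.56, 7.64, 7.61 and 7.38, and the drinkers ran from 7.22 through 7.58 to 7.71 (0.010, SE 0.087). The level of the glucocorticoid receptor transcript thus had no single direction, and between animals of one group the 3 probesets correlated with r of 0.33, 0.28 and 0.13 (permutation test, adjusted p at least 0.322).

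The NR3C1 calls changed when the actin difference of each array entered the fit. With it as a covariate, MmugDNA.16340.1.S1_s_at lost its call in cohort 7a (-0.10, adjusted p = 0.559) and in cohort 7b (-0.30, adjusted p = 0.0908). It also lost the first with array medians subtracted (adjusted p = 0.0759) and the second when cohort 7b was fitted alone (adjusted p = 0.0927). With the covariate, Mmu.14456.1.S1_at was called higher in the drinkers of cohort 7a (0.29, adjusted p = 0.0107) and 7b (0.42, adjusted p = 0.000715), in the difference of these from cohort 5 (0.32, adjusted p = 0.00829), and over all arrays with cohort as a block (0.18, adjusted p = 0.0191). In cohort 7a the actin difference did not overlap between drinkers and controls, so the 2 cannot be told apart there. The drinkers of cohorts 7a and 7b were also above those of cohorts 4 and 5 in all 3 probesets, without overlap, by 0.43 for Mmu.14456.1.S1_at, 0.78 for MmugDNA.16340.1.S1_s_at and 1.25 for MmuSTS.1975.1.S1_at. Of the other 10 probesets, CRHR1 MmugDNA.24786.1.S1_s_at and SGK1 Mmu.1625.1.S1_at showed such a step without overlap, by 0.95 and 1.11. How many of all probesets showed such a step was not counted, and kit accounted for 96.8% of the spread on the first component. The steps are therefore not read as particular to these genes.

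Of the transcripts that the receptor induces, FKBP5 was called in no comparison. The controls of cohort 7b had 5.02 and 5.18 and the drinkers 5.19, 5.23, 5.38, 5.29 and 5.38, all above both controls (0.20, SE 0.13, adjusted p = 0.259). Those of cohort 7a had 5.83, 5.07, 5.21 and 5.23 and the drinkers ran from 4.93 through 5.24 to 5.37 (-0.13, SE 0.099). In cohort 5 the controls had 5.47, 5.09, 5.18, 5.18 and 5.19 and the drinkers ran from 4.87 through 5.15 to 5.39 (-0.067, SE 0.092). The sign thus differed between cohorts while the groups of cohorts 5 and 7a overlapped. Over all arrays the interval of the FKBP5 difference was -0.20 to 0.042. The deposited values come without detection calls, so whether a dim signal such as that of FKBP5 lay above background is not known.

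TSC22D3 was lower in the drinkers of cohort 7b. The controls had 10.30 and 10.37, and the drinkers had 10.09, 9.87, 10.32, 9.96 and 10.10, of which animal 41 lay between the controls. The difference was -0.27 (SE 0.11, adjusted p = 0.0454). The controls of cohort 7a spanned 9.80, 10.17, 10.32 and 9.88, and their drinkers ran from 9.90 through 10.13 to 10.30, within that span (0.086, SE 0.079). In cohort 5 the controls had 9.80, 10.02, 9.93, 9.86 and 9.79 and the drinkers ran from 9.78 through 9.90 to 10.05 (0.022, SE 0.074). The call in cohort 7b was lost without either control (adjusted p = 0.108 and 0.242), without drinker 40, 42 or 43 (0.114, 0.0891 and 0.0522) when the median of each array was subtracted (-0.17, adjusted p = 0.187), with the actin covariate (-0.18, adjusted p = 0.182) and when cohort 7b was fitted alone (adjusted p = 0.173).

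SGK1 was read by 2 probesets. MmugDNA.7204.1.S1_at had group means between 8.90 and 9.33 and was called in no comparison. Its controls in cohort 7b had 9.08 and 9.36 and its drinkers 8.94, 8.96, 9.50, 8.80 and 8.85 (-0.21, SE 0.17). Its controls in cohort 7a had 8.52, 9.07, 8.98 and 9.03 and its drinkers ran from 8.68 through 9.02 to 9.44 (0.11, SE 0.12). Its controls in cohort 5 had 9.17, 9.12, 9.30, 9.08 and 9.42 and its drinkers ran from 8.88 through 9.35 to 9.48 (0.050, SE 0.12). These groups overlapped in each cohort.

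The other SGK1 probeset, Mmu.1625.1.S1_at, was lower in the drinkers of cohorts 7a and 7b. Cohort 7a had controls at 6.31, 6.88, 6.62 and 6.55 and the drinkers ran from 5.64 through 6.14 to 6.50, with 5 of 8 below every control (-0.41, SE 0.15, adjusted p = 0.0385), a call lost without control animal 26, 27 or 28 (adjusted p = 0.162, 0.0823 and 0.0694). Cohort 7b had controls at 7.23 and 6.94, and the drinkers had 6.41, 6.12, 7.40, 6.12 and 6.58, with animal 41 above both controls and the other 4 below them (-0.56, SE 0.21, adjusted p = 0.0300). Without animal 41 the difference was -0.78 (adjusted p = 0.000363), without control animal 37 it was -0.42 (adjusted p = 0.278), and without drinker 40 or 42 it was -0.46 (adjusted p = 0.0826 and 0.0853). In cohort 5 the controls had 5.17, 5.23, 5.43, 5.14 and 5.29 and the drinkers ran from 4.90 through 5.22 to 5.49 (-0.039, SE 0.14). That level was dim, and whether it lay above background is not known. The difference of cohorts 7a and 7b from cohort 5 was -0.45 (SE 0.19, adjusted p = 0.0751). With the actin difference as a covariate the probeset was not called in cohort 7a (-0.23, adjusted p = 0.371) or 7b (-0.43, adjusted p = 0.111). Neither was it with array medians subtracted (adjusted p = 0.0855 and 0.0690) or with each cohort fitted alone (0.0573 and 0.194). Between animals of one group the 2 SGK1 probesets correlated, with r = 0.571 and rho = 0.419 (43 animals, permutation p = 0.00174 and 0.0132, r adjusted p = 0.0174 over 10 pairs, r = 0.411 without the 2 animals farthest from the median).

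Drinkers of different cohorts were compared within a kit. Between cohorts 4 and 5, none of the 13 probesets was called, where the background was 0% (limma, 909 of all probesets and 0 of the 13 at an unadjusted p under 0.05), and the differences ran from -0.094 for CRH to 0.13 for CRHBP. The 11 drinkers of cohort 4 ran from 7.85 through 8.23 to 8.62 in CRHBP, from 7.15 through 7.60 to 7.92 in CRHR1 MmugDNA.37485.1.S1_at, from 9.69 through 9.85 to 10.04 in TSC22D3 and from 4.85 through 5.12 to 5.24 in FKBP5. Between cohorts 7a and 7b, 1 of the 13 was called higher in 7a and 0 lower, beside backgrounds of 7.32% and 4.54%. It was NR3C1 MmuSTS.1975.1.S1_at (0.25, SE 0.086, adjusted p = 0.0499), and the call was lost without the filter on low values (adjusted p = 0.0516) and with array medians subtracted (0.22, adjusted p = 0.0771). CRHR1 MmugDNA.24786.1.S1_at and SGK1 Mmu.1625.1.S1_at were at -0.30 (SE 0.13) and -0.35 (SE 0.14), with adjusted p of 0.121 and 0.107.

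Animal 41, a drinker of cohort 7b, was the highest drinker of its cohort in CRH, TSC22D3, both SGK1 probesets and NR3C1 MmugDNA.16340.1.S1_s_at. It also had the lowest actin difference of the 13 drinkers of cohorts 7a and 7b, 0.76, in the range of the controls. To ask which genes varied together between animals, values were centred on the mean of their cohort and treatment group, 1 probeset per gene was taken (that of highest mean), and the 21 pairs were tested by 100000 permutations within groups, two-sided, with Benjamini-Hochberg adjustment. Of them, 5 pairs passed, all with adjusted p = 0.0351. The relations hold for the probesets taken only. The other probesets of NR3C1, CRHR1 and SGK1 were not tested against other genes, and those of NR3C1 and of CRHR1 did not follow each other past the threshold.

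CRH and SGK1 rose together (r = 0.508, p = 0.00479, rho = 0.479, p = 0.00343, 43 animals, permutation test), and r was 0.378 without the 2 animals farthest from the median of CRH. Within cohorts 7a and 7b r was 0.710 (19 animals, adjusted p = 0.0462), and within cohorts 4 and 5 it was 0.181 (24 animals, adjusted p = 0.810). Without animal 41 the relation did not pass (r = 0.322, adjusted p = 0.190). TSC22D3 and SGK1 also rose together (r = 0.461, p = 0.00755, rho = 0.340, p = 0.0407, permutation test, r = 0.381 without the 2 farthest). Here r was 0.665 in cohorts 7a and 7b (adjusted p = 0.0462), 0.111 in cohorts 4 and 5 (adjusted p = 0.810), and 0.361 without animal 41 (adjusted p = 0.190). Within cohorts 7a and 7b, r was 0.666 and 0.646 without the 2 animals farthest from the median, and without animal 41 it was 0.548 and 0.558 (18 animals, both adjusted p = 0.233, permutation test).

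**Figure D3:**
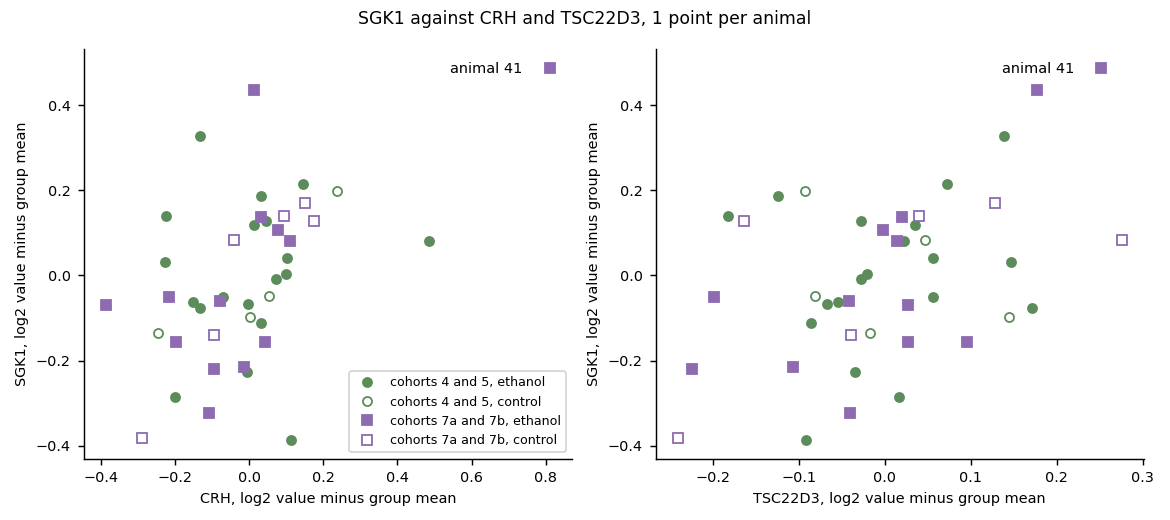
SGK1 (MmugDNA.7204.1.S1_at, vertical axes) against CRH (left) and TSC22D3 (right), each as the log2 value minus the mean of its cohort and treatment group, 1 point per animal, by kit and treatment. Animal 41 lies at the top right of both panels, where r is 0.508 and 0.461 with it and 0.322 and 0.361 without it.

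NR3C1 (Mmu.14456.1.S1_at) and CRHR1 (MmugDNA.37485.1.S1_at) ran against each other (r = -0.460, p = 0.00429, rho = -0.461, p = 0.00444, permutation test, r = -0.447 without the 2 farthest animals). The sign was shared by the kits, at r = -0.543 in cohorts 4 and 5 (adjusted p = 0.0931) and -0.365 in cohorts 7a and 7b (adjusted p = 0.492), and the relation also passed once the actin difference was removed (r = -0.425, adjusted p = 0.0431) and without animal 41 (r = -0.461, adjusted p = 0.0452). NR3C1 and TSC22D3 rose together (r = 0.427, p = 0.00608, rho = 0.476, p = 0.00252, r = 0.421 without the 2 farthest, permutation test), at 0.521 and 0.371 within the kits (adjusted p = 0.0931 and 0.492). This relation did not pass once the actin difference was removed (r = 0.184, adjusted p = 0.531). CRHR1 and TSC22D3 ran against each other (r = -0.379, p = 0.00836, rho = -0.308, p = 0.0485, permutation test), weaker without the 2 farthest animals (r = -0.232), at -0.270 and -0.472 within the kits (adjusted p = 0.759 and 0.141), and past the threshold no longer once actin was removed (adjusted p = 0.138). FKBP5 passed with no other gene. CRH and its binding protein CRHBP were at r = -0.025 and CRH and CRHR1 at r = 0.12, neither past the threshold (adjusted p = 0.862 and 0.590, permutation test).

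**Figure D4:**
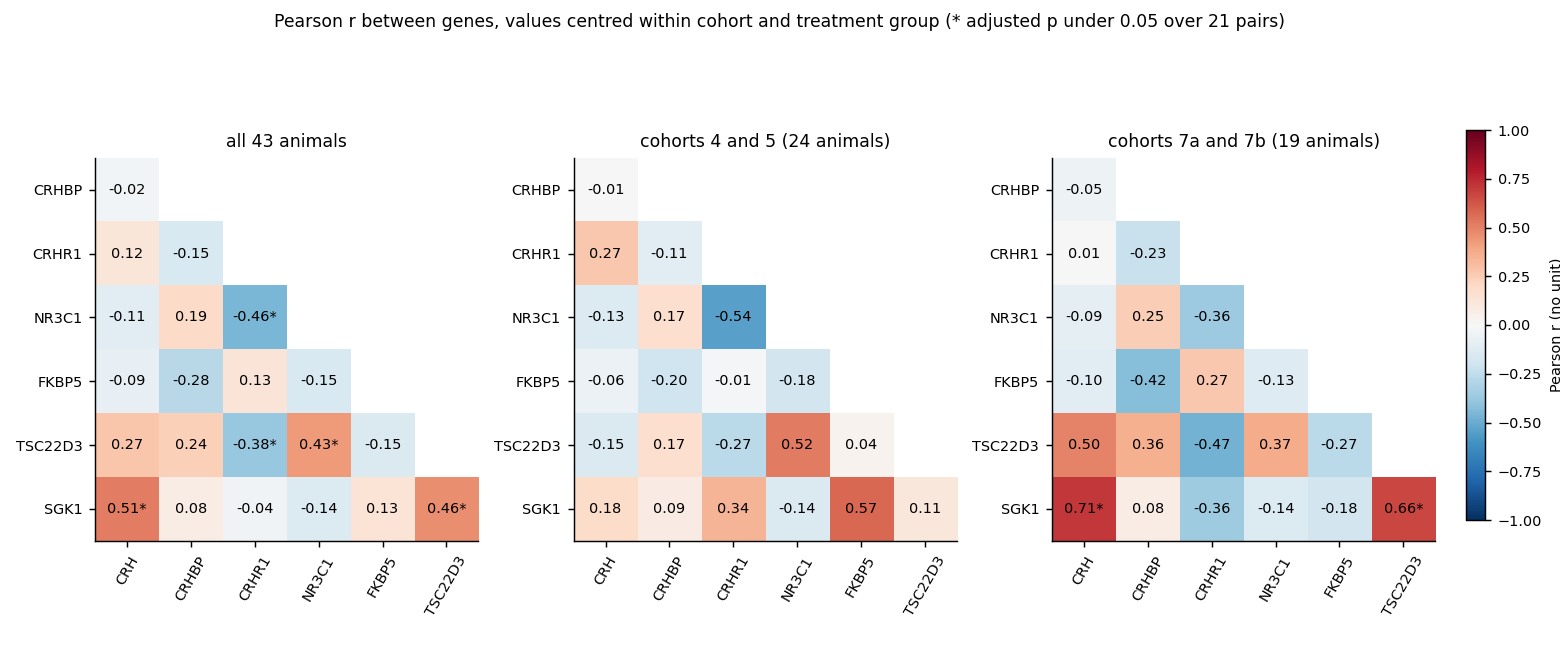
Pearson r (color and number) between the 7 genes (rows and columns), 1 probeset per gene, values centred within cohort and treatment group, over all 43 animals, the 24 of cohorts 4 and 5, and the 19 of cohorts 7a and 7b. Stars mark adjusted p below 0.05 over 21 pairs, which 5, 0 and 2 pairs reached.

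As a description, the genes that followed each member most closely were listed over the 43 animals from 13704 genes, again on centred values. Centring removed the level differences between kits, while depth of signal and RNA quality were still shared by all genes of an array. SGK1 was closest to ANLN (r = 0.779), EVI2A (0.728) and MTUS1 (0.719). TSC22D3 was closest to SERINC5 (0.780), CCT4 (0.718) and PARP1 (0.710), and NR3C1 to PSIP1 (0.785), METTL9 (0.760) and KTI12 (0.758). CRH followed MEGF10 (0.700), CARNS1 (0.672) and SLAIN1 (0.666), and CRHR1 followed B3GNT5 (0.651), ECHDC3 (0.613) and MFSD10 (0.596). CRHBP was closest to DSEL (0.676), CDH10 (0.667) and ATP8B3 (0.635), with r to DSEL of 0.833 in cohorts 4 and 5 and 0.260 in cohorts 7a and 7b. The likeness of FKBP5 to LMOD3 (0.620), TMC4 (0.620) and OR52B2 (0.604) rested more on cohorts 7a and 7b, where r to TMC4 was 0.830 against 0.203 in cohorts 4 and 5.

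Other genes of the pathway were taken as lists, with 1 probeset per gene, and their counts over all 43 arrays stand beside the median of all probesets tested, -0.044, and the shares called higher and lower given above. Of 14 stress peptides and their receptors, 10 were tested, with 0 higher, 1 lower and a median of -0.0041. The 1 was OXTR, the oxytocin receptor (-0.19, adjusted p = 0.0488), and POMC, the precursor of ACTH, was at -0.31 (adjusted p = 0.0817). The OXTR signal was dim, with a mean of 4.25 over all arrays, and whether it lay above background is not known. Of 15 genes of chaperones, immunophilins and their partners, 14 were tested and 2 were higher, CDC37 (0.13, adjusted p = 0.0112) and STIP1 (0.13, adjusted p = 0.0446). The first is a partner of HSP90 for kinases and the second the link between HSP70 and HSP90. None was lower, and the median was 0.0099. HSP90AA1, the inducible HSP90, was at -0.48 (adjusted p = 0.117).

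Of 14 coregulators of steroid receptors, 10 were tested, with 1 higher and 1 lower and a median of 0.0029. NCOA3, a coactivator, was higher (0.27, adjusted p = 0.0343) and NRIP1, a corepressor, was lower (-0.19, adjusted p = 0.0141). Of 13 genes of glucocorticoid metabolism and transport, 9 were tested, with 0 higher and 2 lower and a median of -0.050. These were STAR (-0.23, adjusted p = 0.0155), which carries cholesterol into mitochondria, and CYP11B1 (-0.17, adjusted p = 0.0415), which makes cortisol in the adrenal gland. Both were dim, with means over all arrays of 4.59 and 5.09, and whether either lay above background in this tissue is not known. Of 30 other transcripts known to be induced by glucocorticoids, 21 were tested, with 1 higher, 4 lower and a median of -0.028. BCL6, a transcriptional repressor, was higher (0.21, adjusted p = 0.0158). MT1X, a metallothionein (-0.26, adjusted p = 0.0140), GADD45A, a growth arrest gene (-0.18, adjusted p = 0.0239), ANXA1, the anti-inflammatory annexin (-0.47, adjusted p = 0.0303), and DUSP1, a phosphatase of MAP kinases (-0.25, adjusted p = 0.0344), were lower. DUSP1 lies outside the rule for naming list genes and was named after its values were seen, and the MT1X probeset may read its near-identical relatives.

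Within cohorts, none of these list genes was called in cohort 5. The shares of all probesets called higher and lower were 10.6% and 20.3% in cohort 7a and 14% and 26.1% in cohort 7b, and the counts of these short lists are to be read against them. In cohort 7b the 21 glucocorticoid-induced transcripts had 2 higher and 7 lower with a median of -0.24, beside -0.065 for all probesets, and in cohort 7a 2 higher and 3 lower with a median of -0.015, beside -0.068. ANXA1 was at -0.0037, -0.72 and -1.31 in cohorts 5, 7a and 7b, and DUSP1 at -0.0070, -0.31 and -0.63. These are 2 genes that fell, and other genes of the list went the other way. Of the 21, 10 were above 0 in cohort 7a, up to 0.47, and 6 in cohort 7b, up to 0.83. The chaperone list had 5 higher and 2 lower in cohort 7a and 4 higher and 3 lower in cohort 7b, with HSP90AA1 at -0.39 and -0.70. Of 6 microglia markers, 3 were lower in cohort 7a and 2 lower and 1 higher in cohort 7b, with AIF1 at -0.54 and -1.09. Of the 4 astrocyte markers, GFAP alone was called in cohort 7b, where it was higher in drinkers (0.84, SE 0.19, adjusted p = 0.000409), and none was called in cohort 7a. Their part in the results of the stress axis genes was not tested.

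**Figure D5:**
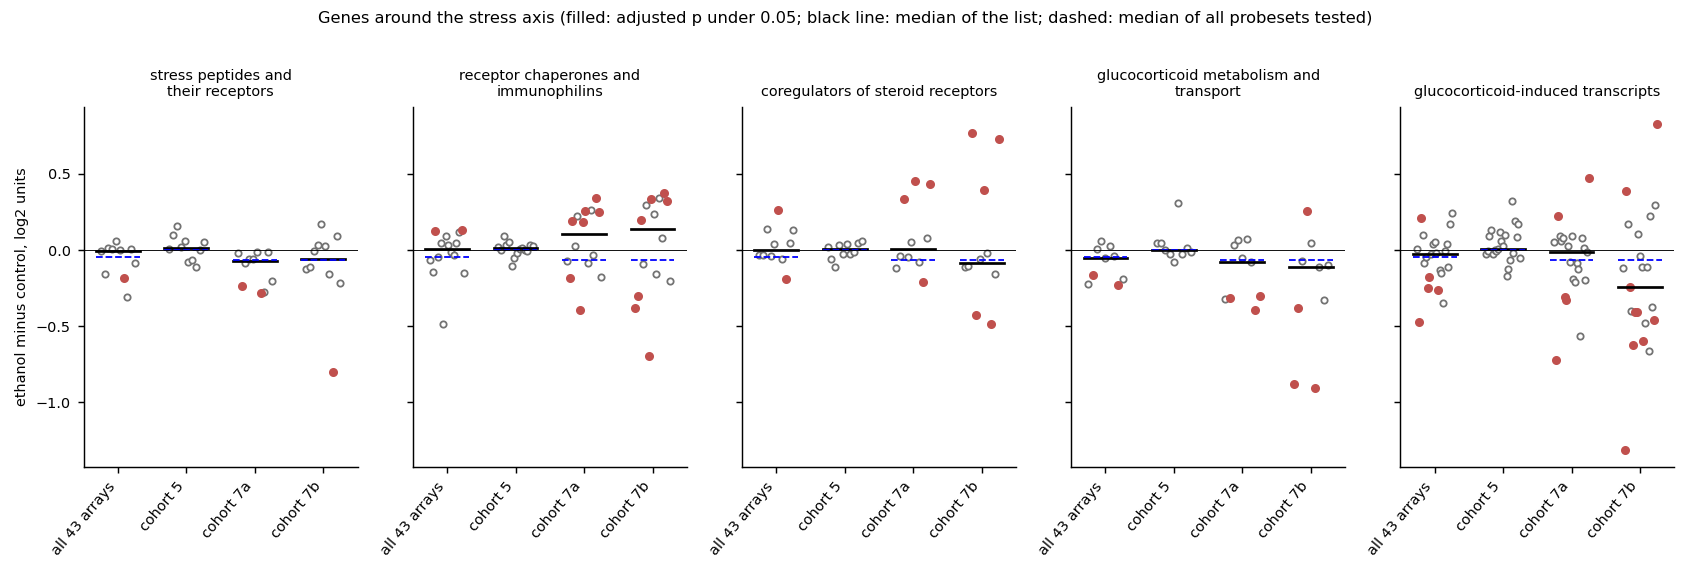
Ethanol minus control in log2 units (vertical axis) for the genes of 5 lists over all 43 arrays and within cohorts 5, 7a and 7b (horizontal axes), 1 point per gene, filled where the adjusted p was below 0.05, with the median of the list (black line) and of all 24151 probesets tested (dashed). No gene is filled in cohort 5, and in cohort 7b the median of the glucocorticoid-induced transcripts lies at -0.24.

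Genes of interneurons, which make CRH and CRHBP in the cortex, were taken as a further list, of which 8 of 16 were tested. Over all arrays, GAD2, a GABA-synthesizing enzyme (1.12, adjusted p = 0.000946), and LHX6, a factor of interneuron development (0.26, adjusted p = 0.00527), were higher and VIP, a neuropeptide, was lower (-0.39, adjusted p = 0.00429), and the median was -0.027. Of the 8 genes, 3 were above 0. GAD1, the other GABA-synthesizing enzyme, was at -0.0015 (adjusted p = 0.984) and is named outside the rule for list genes. In cohort 5 no gene of this list was called, and differences ran from -0.27 to 0.30. They ran from -0.39 to 1.51 in cohort 7a and from -1.53 to 2.22 in cohort 7b. Beside the CRH and CRHBP differences of cohort 7b, the mean over the 8 genes was 9.34 and 9.36 in its controls and ran from 9.06 through 9.24 to 9.40 in its drinkers, with 2 higher and 3 lower, and its part in them was not tested.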

How the data were processed

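RNA of pooled PFC areas from each animal was hybridised to 1 rhesus array. The authors made the deposited log2 values by RMA (background correction, quantile normalization and summarization in the affy package, over the probes of each probeset). No raw counts or detection calls are part of that table. Probesets were named through the platform's annotation, in which 25317 of 52865 carried a gene symbol and 24956 a single one. From the deposited log2 values, probesets below 3.5 in at least 80% of arrays were removed, as in the authors' methods, which left 24151. The authors annotated probesets from another source and kept a larger set. Their methods also adjusted the RMA values for processing batch by the ComBat method, and no such step was applied here. The member genes and gene lists were chosen with earlier results of these data known. Tests used limma 3.58.1 (R 4.3.3) with Benjamini-Hochberg adjustment over all 24151 probesets, first as a 2-class comparison without covariates and then with 1 mean per cohort and treatment group. The p-values rest on the spread between animals, which in the fit of group means was pooled over all groups of both kits. A test within a cohort thus does not rest on the spread of that cohort alone, unless its arrays were fitted alone. In the 2-class comparison the spread also holds the gaps between kits and cohorts. For NR3C1 MmuSTS.1975.1.S1_at the SE was 0.233 in that comparison and 0.062 with cohort as a block. Relations were tested in Python 3.11.15 (numpy 2.4.6, scipy 1.17.1, pandas 2.3.3) and drawn with matplotlib 3.10.9. Named genes were all member probesets, 2 to 4 genes of each list with the smallest adjusted p over all arrays, and the 3 genes most like each member. The fits were tested on simulated data. Alternatives were cohort or kit as a block, the actin difference as a covariate, other filters, subtracted array medians, single cohorts, and leaving out cohorts or animals. Animals were left out 1 at a time, and only from groups of 5 or fewer. The study's processing batches, finer than the kits, were not analysed here. The number of arrays, with 2 controls in cohort 7b, limits the precision.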

Additional observations from a re-analysis of the deposited data

Results flagged for a closer look

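Of 65 groups of 4 to 10 animals (each probeset in each such group), 4 held an animal whose gap to the next was larger than Dixon's 95% limit for its group size, and chance gives about 1 in 20. CRHR1 MmuSTS.1885.1.S1_at was highest in ethanol animal 23 of cohort 5, at 7.49. FKBP5 was highest in control animal 12 of cohort 5, at 5.47. SGK1 MmugDNA.7204.1.S1_at was lowest in control animal 25 of cohort 7a, at 8.52, and highest in ethanol animal 41 of cohort 7b, at 9.50.

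The ethanol effect of cohorts 7a and 7b differed from that of cohort 5 by the limma test of the difference for 3 probesets. These were NR3C1 MmugDNA.16340.1.S1_s_at (-0.37), NR3C1 MmuSTS.1975.1.S1_at (-0.33) and CRHR1 MmugDNA.37485.1.S1_at (0.58). Cohort 5 also differs from the others in extraction kit and processing, so cohort and kit cannot be told apart in them.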

How the results depend on the processing

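Of the 24151 probesets, 3901 were called over all arrays. The count was 8044 with cohort as a block, 6972 with kit as a block, 2339, 9767, 0 and 172 without cohorts 4, 5, 7a and 7b, and 1719 to 5114 without 1 animal. Of the 13 member probesets 1 was called, and 5, 2, 0, 5, 0 and 0 under the same settings, and 0 to 1 without 1 animal. With cohort as a block the 5 calls became 1 to 5 without 1 animal. In these ranges each of 16 animals was left out in turn, those of groups of 5 or fewer. No drinker of cohorts 4, 5 or 7a was left out alone. In cohort 5, 1 of all probesets was called when its arrays were fitted alone. In cohort 7a the 7468 calls became 4712 with the actin covariate, and the 3 member calls were all lost with that covariate while 1 other, NR3C1 Mmu.14456.1.S1_at, was gained. Of the 3, 1 was kept with array medians subtracted and 1 fitted alone, and the count was 0 to 3 without 1 animal. In cohort 7b the 8 member calls became 5 with the covariate (4 kept and the same NR3C1 probeset gained), 4 fitted alone, all among the 8, and 1 to 8 without 1 animal. For the difference between cohorts the 3 member calls were all lost with the covariate while that NR3C1 probeset was gained, 1 was kept with medians subtracted, and the count was 0 to 4 without 1 animal. Between drinkers of cohorts 7a and 7b the 1 member call became 0 without the filter and 0 with medians subtracted. The 5 relations became 3 with actin removed, 0 in cohorts 4 and 5, and 2 in cohorts 7a and 7b. Without animal 41 they became 3, and 0 in cohorts 7a and 7b. The settings without animal 41 were chosen after seeing the data, as were cohort blocks with 1 animal left out. The cause of these shifts was not tested.

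Differences that changed sign were not called over all arrays. NR3C1 Mmu.14456.1.S1_at was at -0.073 without cohort 5, -0.025 without cohort 7b and -0.013 to 0.052 without 1 animal. CRHR1 MmuSTS.1885.1.S1_at was at 0.011 with cohort and 0.000175 with kit as a block, 0.029 with medians subtracted and 0.029 without cohort 4. CRHR1 MmugDNA.24786.1.S1_s_at was at 0.017 with cohort and 0.020 with kit as a block, 0.044 with block and actin, and 0.088 without cohort 4. CRHBP was at 0.019 without cohort 7b. TSC22D3 was at 0.045 with block and actin, 0.016 with medians subtracted, 0.0059 without cohort 4 and 0.0035 without cohort 7b. No paired analysis was possible because the labels do not give which drinker a control was matched to.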
